A study of Mus musculus with 18 samples.

Results

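The mesenteric white adipose depot (mWAT), the visceral fat that lies along the gut, was compared between mice exposed to 6°C and mice kept at 28°C. Its members are the 6 arrays whose titles name mesenteric white adipose tissue, 3 at 6°C and 3 at 28°C, of 18 arrays in the series. The other 12 arrays hold inguinal subcutaneous WAT (sWAT) and interscapular brown adipose tissue (BAT), 3 at each temperature in each depot. All mice were 10-wk-old singly caged females of the strain that the labels give as Sv129 and had no transgene or drug treatment named. They spent 10 days at 6°C, a cold load for a mouse, or 10 days at 28°C, which is close to thermoneutral. RNA of the whole tissue was read on Affymetrix mouse arrays after amplification, with 1 value for each probe set, a set of short probes for a transcript. The study describes the 3 arrays of a group as biological replicates, and the labels do not say which arrays of different depots share a mouse. The arrays of a group are called A, B and C here, names that pair nothing across groups.

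Brown adipocytes burn fat to make heat through uncoupling protein 1 (UCP1), which lets protons leak back across the inner mitochondrial membrane. Cold acts on fat mainly through sympathetic nerves, which release noradrenaline onto adipocytes, raise cAMP, start lipolysis and switch on thermogenic genes. White depots can gain such cells, termed brite or beige, in cold, and visceral depots are known to do so less readily than subcutaneous fat. Bulk tissue also holds vessels, nerves, immune cells and mesothelium, and in mWAT it can hold lymph nodes and pieces of pancreas.

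The labels contradict themselves, since 1 of the 6 arrays titled mesenteric has a tissue characteristic of mesenteric and 0 of the 6 have a tissue and temperature characteristic that both match the title. The depot markers followed the titles. Upk3b, a mesothelial gene, was between 11.8 and 12.8 log2 intensity on the 6 arrays titled mesenteric and between 4.84 and 7.14 on the other 12, and Wt1, another mesothelial and visceral fat gene, was between 8.81 and 10.6 against 3.36 to 6.10. Grouped by the characteristic instead, the 6 arrays named mesenteric spread from 4.84 to 12.2 for Upk3b. Adipoq, which encodes the adipocyte hormone adiponectin, was between 13.5 and 13.7 on the mesenteric arrays. Zic1, a marker of the brown fat lineage, was at 2.50 to 2.82 on all 6. No detection value comes with the table, so a low level is given as measured, with an array median between 7.14 and 7.20.

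The 6 arrays differed among themselves in ways that do not follow temperature. Both arrays C were low in lymphoid genes. The mean of 20 B cell genes was 10.96, 10.93 and 6.99 log2 on arrays A, B and C at 6°C, against 10.87, 11.19 and 7.18 at 28°C, and that of 20 T cell genes was 10.75, 10.74 and 6.31 at 6°C, against 10.64, 10.76 and 6.31 at 28°C. All 20 B cell and all 20 T cell genes were lower on both arrays C than on each of the other 4. Cd79b, a subunit of the B cell receptor, was 12.54, 12.58 and 8.73 at 6°C, against 12.46, 12.93 and 8.56 at 28°C. Glycam1, a mucin of lymph node high endothelial venules, was 13.47, 13.52 and 5.75 at 6°C, against 13.40, 13.46 and 6.56 at 28°C. The 9 MHC class II genes followed the same split, and so did 28 of 29 cell division genes. Each temperature thus had 2 arrays high and 1 array low in these genes. Over the whole table, 3653 of 18193 genes were lower on both arrays C than on each of the other 4.

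Pancreas genes split the arrays differently. The mean of 28 exocrine pancreas genes was 5.16, 13.4 and 5.05 on arrays A, B and C at 6°C, against 8.39, 4.93 and 4.76 at 28°C. Array B at 6°C was the highest for all 28, and array A at 28°C was the second highest for 25 of them. Ctrb1, which encodes the digestive proenzyme chymotrypsinogen B, was 6.65, 14.50 and 3.94 at 6°C, against 12.08, 3.42 and 4.45 at 28°C. These genes therefore had large positive mean differences, with a median of 1.71 over the list, that rest on array B at 6°C, without which the median was -1.04. The same array was the highest for 7 of 18 mast cell and granulocyte genes, Ngp, S100a8, S100a9, Mpo, Camp, Ltf and Elane. S100a8, a neutrophil protein, was at 8.11, 12.23 and 8.82 at 6°C, against 6.74, 7.96 and 9.83 at 28°C. The other members were not highest there, among them the mast cell gene Cpa3, at 7.74, 7.71 and 8.24 at 6°C, against 8.41, 8.11 and 8.43 at 28°C. Array B at 28°C was the highest for 8 of 13 liver genes, with Alb, the serum albumin gene, at 6.09, 7.14 and 6.76 at 6°C, against 6.87, 10.65 and 6.27 at 28°C. Fewer cells of a type and less RNA per cell cannot be told apart in such tissue. Over all probe sets the 2 arrays C correlated at r = 0.991, an array C with one of the other 4 at 0.949 to 0.969, and the other 4 among themselves at 0.979 to 0.990, so the resemblance did not follow temperature.

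**Figure D1:**
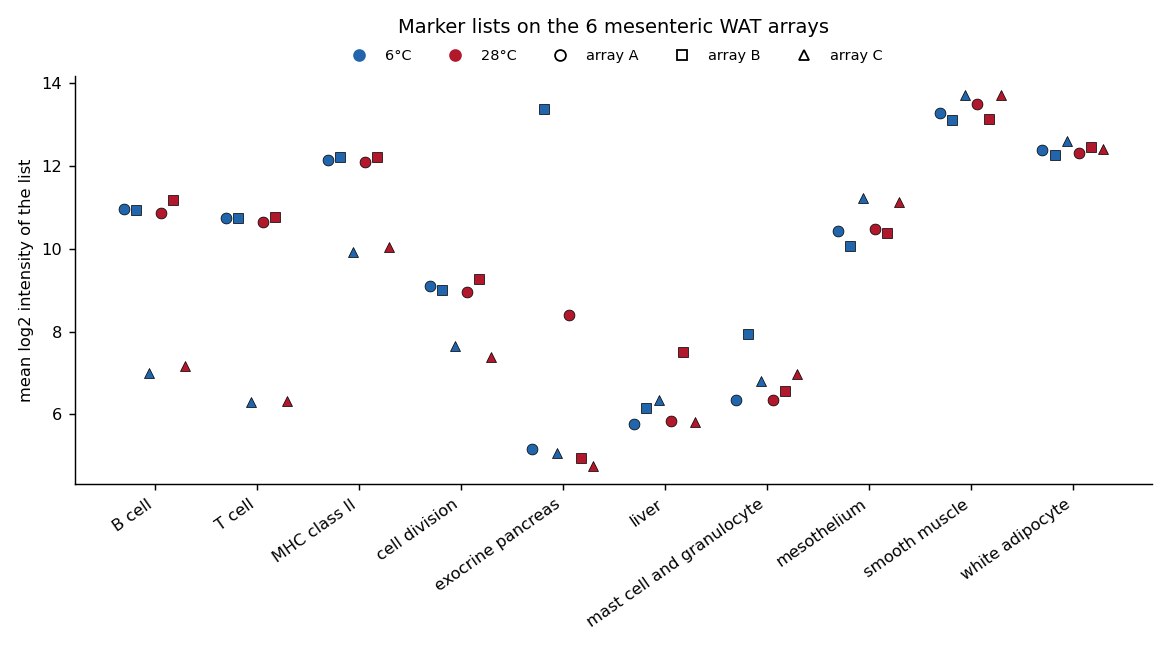
Mean log2 intensity of 10 gene lists (x axis) on the 6 mWAT arrays, blue for 6°C and red for 28°C, with a circle, square and triangle for arrays A, B and C. Both arrays C sit low in B cell, T cell, MHC class II and cell division genes, and array B at 6°C stands at 13.4 for exocrine pancreas genes while white adipocyte genes stay between 12.3 and 12.6 on every array.

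Between 6 and 28°C, 1 probe set of 45037 (0.00222%) passed the threshold, an adjusted p of 0.01 from limma with a mean for each of the 6 depot and temperature groups. It is that of Ucp1. At an adjusted p of 0.05 there were 4 (0.00888%), those of Ucp1, Nrg4, Coq8a and Nfil3, and at 0.10 there were 6 (0.0133%), with Acsf2 and Orm3 added. Without adjustment 1819 probe sets (4.04%) had a p under 0.05 in limma, fewer than the 2252 expected by chance. At the same threshold of 0.01 the contrast of 6 with 28°C called 216 probe sets (0.48%) in sWAT and 2377 (5.28%) in BAT. A single gene compared over 3 against 3 arrays by an exact permutation test cannot go below p = 0.1, so every adjusted p here comes from limma.

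Ucp1, the gene of the uncoupling protein, rose in the cold. It was 9.57, 10.15 and 8.76 log2 on arrays A, B and C at 6°C, against 6.27, 6.76 and 6.39 at 28°C. Every array at 6°C was above every array at 28°C, with array C the lowest of the cold arrays, and the means were 9.50 ± 0.70 at 6°C and 6.48 ± 0.25 at 28°C (SD, n = 3 each). The difference was 3.02 ± 0.29 (SE), an 8.12-fold rise with a 95% interval from 5.25 to 12.6 and an adjusted p of 0.00205. The cold level in mWAT lay near that of sWAT kept at 28°C, which was 10.39, 9.52 and 10.55, and far below BAT, which was 14.39, 14.31 and 14.40 at 6°C, against a mean of 14.03 at 28°C. The call was lost without array A at 6°C (adjusted p = 0.0261) and without array A or array C at 28°C (0.0287 and 0.0241), with a pseudocount of 50 added to the intensities (0.0117), and with only the 6 mWAT arrays in the fit (adjusted p = 1), while the difference stayed between 2.48 and 3.39 in every setting tried. Its paralog Ucp3, the uncoupling protein of muscle and brown fat, differed by 0.06 ± 0.32.

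The promoter of Ucp1 is shown because it is the single gene called. RefSeq's window on build GRCm38.p6 covers chr8:83290098-83290397, plus strand, 250 bases before the transcription start to 50 after it, with TGACG, the core of the cAMP response element, in capitals. On either strand TGACG occurs in 20.8% of the 32851 promoter windows, here 147 bases before the start.

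Ucp1 (TGACG in capitals): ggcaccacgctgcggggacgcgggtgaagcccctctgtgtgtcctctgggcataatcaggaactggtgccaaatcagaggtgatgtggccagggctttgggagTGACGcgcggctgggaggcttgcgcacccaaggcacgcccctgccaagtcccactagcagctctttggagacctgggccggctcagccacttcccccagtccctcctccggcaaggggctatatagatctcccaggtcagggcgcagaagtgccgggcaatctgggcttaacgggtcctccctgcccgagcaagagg

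Of the other 5 genes under an adjusted p of 0.10, 4 were higher in the cold. Nrg4 encodes neuregulin 4, a growth factor that adipocytes secrete. Its dimmer probe set was 10.41, 10.27 and 10.35 at 6°C, against 9.08, 9.08 and 8.95 at 28°C, with little spread inside either group, a difference of 1.31 ± 0.17 and an adjusted p of 0.033. The brighter Nrg4 probe set also separated the groups but by 0.57 ± 0.17 (adjusted p = 0.873). Coq8a, also named Cabc1, encodes a mitochondrial protein needed to make ubiquinone, the electron carrier. The dimmer of its probe sets was 9.87, 10.36 and 10.14 at 6°C, against 8.95, 9.07 and 9.07 at 28°C, a difference of 1.09 ± 0.15 (adjusted p = 0.033), while the brighter differed by -0.13 ± 0.13, so the 2 probe sets disagree.

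Acsf2, a mitochondrial acyl-CoA synthetase that activates fatty acids, was 10.45, 10.47 and 10.89 at 6°C, against 9.71, 9.83 and 9.77 at 28°C (0.83 ± 0.13, adjusted p = 0.0793). Orm3 belongs to the orosomucoid family of secreted acute-phase glycoproteins. It was 9.73, 9.52 and 9.80 at 6°C, against 7.88, 7.90 and 8.64 at 28°C (1.54 ± 0.24, adjusted p = 0.0955). Orm2 had a like difference, 1.22 ± 0.25, with arrays that do not overlap, while Orm1, far brighter at 12.89 to 13.29 at 6°C and 12.67 to 13.23 at 28°C, differed by 0.06 ± 0.14. These family members are close in sequence, and how far their probes share transcripts was not tested.

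Nfil3, a transcriptional repressor of the clock's output, was the gene lower in the cold. It was 7.95, 8.27 and 8.46 at 6°C, against 9.34, 9.89 and 9.81 at 28°C, a difference of -1.45 ± 0.20 (adjusted p = 0.033), and no array at 6°C reached any at 28°C. Tmem182, a membrane protein gene, was 9.18, 9.08 and 9.38 at 6°C, against 9.96, 10.15 and 10.18 at 28°C (-0.88 ± 0.17, adjusted p = 0.257).

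**Figure D2:**
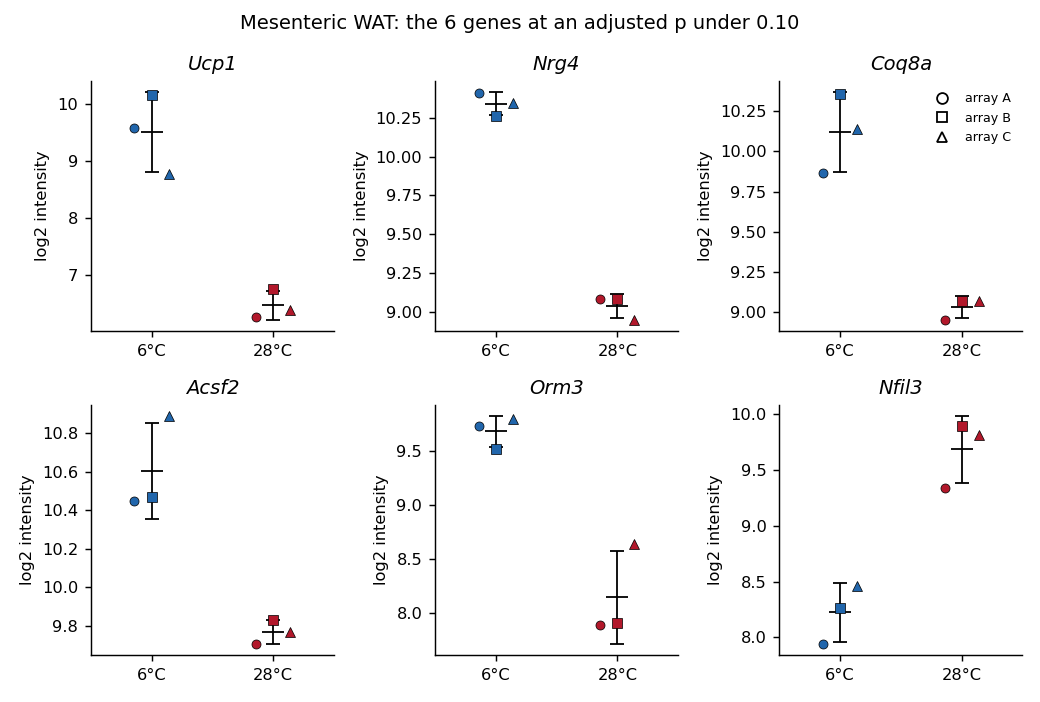
Log2 intensity of the 6 genes at an adjusted p under 0.10 on the mWAT arrays at 6°C (blue, left) and 28°C (red, right), with a circle, square and triangle for arrays A, B and C and bars for the mean and SD (n = 3); the y axes do not start at 0. Groups do not overlap in any panel, and Nfil3 is the gene that is lower at 6°C.

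Beyond these, the genes of smallest p whose arrays did not overlap included Dbp (the dimmer probe set, 2.02 ± 0.34, adjusted p = 0.108), St6galnac5, a sialyltransferase (1.52 ± 0.25, 0.108), Cep83os (0.77 ± 0.13, 0.108) and 4930402H24Rik (0.88 ± 0.14, 0.104). For the last, 1 of 5 probe sets carries the difference and the brightest differs by 0.02 ± 0.20. On the lower side stood Angptl8, a secreted inhibitor of lipoprotein lipase that insulin and feeding raise, at 9.71, 9.67 and 10.06 at 6°C, against 11.42, 10.99 and 11.52 at 28°C (-1.49 ± 0.27, adjusted p = 0.162). Mal2, a membrane trafficking protein, differed by -1.30 ± 0.27 and Cry1 by -0.79 ± 0.17 (adjusted p = 0.333 each). The other genes of the lower side, Adamts19, Lonrf3, Ttc16, Tfg and Olfr70, had group means under the array medians on the probe set concerned and adjusted p-values from 0.333 to 0.435. The brighter probe set of Tfg differed by -0.02 ± 0.11, so its probe sets disagree, while that of Lonrf3 differed by -1.40 ± 0.39.

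Taken gene by gene with the brightest probe set of each of 18193 genes, every array at 6°C was above every array at 28°C for 860 genes (4.73%) and below for 509 (2.8%), and the median difference was 0.01. The gene lists were read against these shares. Unadjusted p-values under 0.05 were held by 584 genes on the higher side (3.21%) and by 253 on the lower side (1.39%).

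Genes of the circadian clock were apart from those shares in both directions. The core clock is a loop in which CLOCK or NPAS2 with BMAL1 (encoded by Arntl) drive Per and Cry genes and the nuclear receptors Nr1d1 and Nr1d2, whose products shut the drivers off, while DBP, TEF and HLF activate and NFIL3 represses a shared set of output genes. Of 18 measured members (19 listed), 6 lay wholly above and 3 wholly below at 6°C, 33.3% and 16.7%. At an unadjusted p under 0.05 there were 7 higher and 4 lower (38.9% and 22.2%), and 0 passed the threshold.

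The output activator Dbp was 12.16, 11.15 and 11.42 at 6°C, against 10.38, 9.37 and 9.79 at 28°C on its brightest probe set (1.73 ± 0.36, adjusted p = 0.333). Nr1d1, which encodes the repressor REV-ERBα, was 10.85, 10.50 and 11.06 at 6°C, against 9.32, 8.25 and 9.69 at 28°C (1.72 ± 0.31, adjusted p = 0.171). Its relative Nr1d2 was 12.30, 11.85 and 12.14 at 6°C, against 11.42, 10.25 and 11.35 at 28°C (1.09 ± 0.30). Per3, a period gene, was 11.45, 10.45 and 10.67 at 6°C, against 9.92, 8.90 and 10.01 at 28°C (1.24 ± 0.39). In all 4, array B was the lowest array at each temperature, and the groups did not overlap.

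Ciart, a repressor of the CLOCK and BMAL1 pair, was 7.97, 6.99 and 6.68 at 6°C, against 6.58, 6.38 and 6.27 at 28°C (0.81 ± 0.37), with all but array A at 6°C under the array medians, and differed by 0.43 without that array. Bhlhe41, another repressor, differed by 0.75 ± 0.26 without overlap but at levels of 4.87 to 6.12, under the array medians. Tef differed by 0.66 ± 0.26, with 1 cold array, B at 10.77, below the highest warm array at 10.78.

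Other members were lower in the mean at 6°C. The driver gene Arntl was 8.0, 9.0 and 9.24 at 6°C, against 9.32, 9.71 and 10.17 at 28°C (-0.99 ± 0.39), with array A at 6°C the lowest. Npas2 was 7.22, 7.91 and 8.09 at 6°C, against 7.98, 8.34 and 9.14 at 28°C, and here the groups overlapped (-0.74 ± 0.33). Cry1 was 9.13, 9.04 and 9.08 at 6°C, against 9.64, 9.86 and 10.13 at 28°C. Clock itself differed by -0.21 ± 0.19, Per1 by 0.31 ± 0.24, Per2 by 0.15 ± 0.60, Cry2 by 0.01 ± 0.21 and Hlf by -0.32 ± 0.27, all with overlap. Beyond the first 6 by size, the members are named here after their values were seen. The counts leaned on array A at 6°C, without which 4 genes were higher and 2 lower at an unadjusted p under 0.05, and the lower count was also 2 without array C at 28°C. The labels give no hour of collection.

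**Figure D3:**
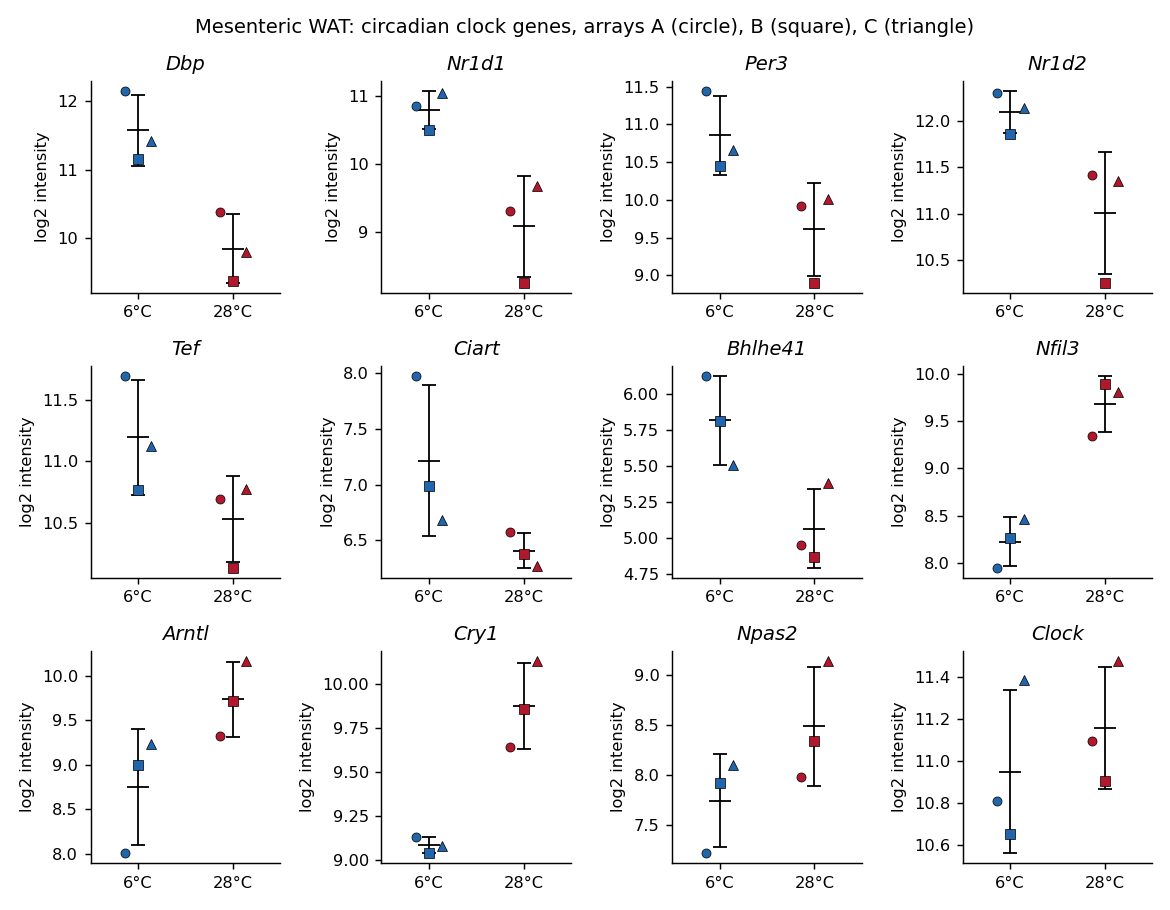
Log2 intensity of 12 circadian clock genes on the mWAT arrays at 6°C (blue, left) and 28°C (red, right), with a circle, square and triangle for arrays A, B and C and bars for the mean and SD (n = 3); the y axes do not start at 0. The panels of Dbp to Bhlhe41 are higher at 6°C in the mean, those of Nfil3 to Npas2 lower, and Clock overlaps.

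In sWAT the same genes had differences of 2.38 for Dbp, 2.06 for Nr1d1, 1.41 for Per3, 0.85 for Nr1d2, -1.30 for Nfil3, -1.12 for Arntl and -0.67 for Cry1. In BAT they were 1.31, 0.70, -0.51, 0.30, -0.52, -0.97 and -0.26 in the same order. No member passed the threshold for a difference of the cold response between mWAT and either depot, and the interval of mWAT minus sWAT for Nfil3 ran from -0.75 to 0.44. Since each depot has its own 28°C arrays, these are separate arrays, but whether they come from the same mice is not given.

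Promoters of 4 clock genes are shown for the elements through which the loop acts, the E-box CACGTG that CLOCK and BMAL1 bind and the D-box TTANGTAA that DBP, TEF, HLF and NFIL3 bind. RefSeq held windows for 16 of the 18 genes, 21 windows in all. CACGTG occurred in 6 windows of 5 of these genes (Bhlhe41, Ciart, Cry1, Per1 and Tef), against 7.15% of all 32851 windows, and TTANGTAA in 1 window, that of Per3, against 2.32%, both strands searched. A match is a run of letters and no measured binding. The capitals mark the match, on build GRCm38.p6. Per3 is at chr4:151044616-151044915, minus strand, Cry1 at chr10:85185005-85185304, minus strand, Ciart at chr3:95882179-95882478, minus strand and Tef at chr15:81802423-81802722, plus strand. The D-boxes of Per3 begin 205 and 158 bases before the start, and the E-boxes of Ciart 116, 58 and 44 bases before it.

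Per3 (D-boxes in capitals): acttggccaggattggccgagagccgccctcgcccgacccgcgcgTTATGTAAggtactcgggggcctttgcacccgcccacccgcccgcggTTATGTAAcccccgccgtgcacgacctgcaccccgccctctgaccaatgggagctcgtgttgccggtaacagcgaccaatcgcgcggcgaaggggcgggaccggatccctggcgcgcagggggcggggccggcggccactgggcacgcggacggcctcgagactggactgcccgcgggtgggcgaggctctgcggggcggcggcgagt
Cry1 (E-box in capitals): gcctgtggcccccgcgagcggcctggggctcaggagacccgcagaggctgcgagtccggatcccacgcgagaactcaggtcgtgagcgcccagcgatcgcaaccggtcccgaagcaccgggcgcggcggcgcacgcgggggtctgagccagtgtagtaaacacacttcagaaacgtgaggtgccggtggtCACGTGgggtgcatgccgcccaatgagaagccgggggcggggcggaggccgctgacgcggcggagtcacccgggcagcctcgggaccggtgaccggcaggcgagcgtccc
Ciart (E-boxes in capitals): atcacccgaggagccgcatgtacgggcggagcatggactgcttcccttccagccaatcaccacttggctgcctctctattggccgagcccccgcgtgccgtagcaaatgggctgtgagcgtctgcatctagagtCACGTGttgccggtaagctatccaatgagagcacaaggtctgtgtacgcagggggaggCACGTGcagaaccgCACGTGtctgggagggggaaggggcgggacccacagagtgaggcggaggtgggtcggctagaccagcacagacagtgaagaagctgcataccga
Tef (E-box in capitals): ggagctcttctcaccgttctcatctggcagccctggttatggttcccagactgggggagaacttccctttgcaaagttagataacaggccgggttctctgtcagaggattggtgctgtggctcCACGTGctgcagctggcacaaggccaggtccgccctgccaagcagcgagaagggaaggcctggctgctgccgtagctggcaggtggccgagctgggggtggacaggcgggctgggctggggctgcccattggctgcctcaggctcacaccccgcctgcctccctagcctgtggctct

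Thermogenic genes other than Ucp1 had mostly positive differences that were smaller than in sWAT. Of 33 measured members of the brown fat thermogenesis list (36 listed), 8 lay wholly above and 0 below at 6°C (24.2% and 0%), and 11 were higher at an unadjusted p under 0.05 (33.3%). The median difference was 0.33 in mWAT, beside 1.51 in sWAT and 0.27 in BAT. In the test of the difference, 23 of the 33 had a cold response below that of sWAT at an unadjusted p under 0.05, where 3.93% of all genes did, and 0 had one above it, where 1.7% did. Members such as Ucp1, Otop1, Cox8b and Cidea are also in the study's list of genes that rise in cold sWAT. That list was drawn from these same arrays, so the excess below sWAT was partly set in advance. Without array C at 28°C the count of 11 became 18 and the median 0.50, and without array C at 6°C they were 9 and 0.17.

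Elovl3, a fatty acid elongase that cold induces strongly in brown fat, was 7.83, 6.85 and 7.80 at 6°C, against 4.66, 3.35 and 5.35 at 28°C, all 3 warm arrays being under the array median (3.04 ± 0.62, adjusted p = 0.333). Otop1, a proton channel of brown fat, was 8.96, 9.62 and 9.73 at 6°C, against 7.90, 8.97 and 8.32 at 28°C (1.04 ± 0.27), with array A at 6°C just under array B at 28°C. Cox8b, the muscle and brown fat form of a cytochrome c oxidase subunit, was 11.74, 11.81 and 12.24 at 6°C, against 10.64, 11.03 and 11.38 at 28°C (0.91 ± 0.18, adjusted p = 0.326). Cidea, a lipid droplet protein of brown adipocytes, was 11.07, 11.30 and 11.50 at 6°C, against 9.88, 10.25 and 11.14 at 28°C (0.86 ± 0.24), with array C at 28°C just above array A at 6°C.

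The arrays overlapped for the regulators of the brown programme. Ppargc1a, the coactivator of mitochondrial biogenesis, differed by 0.14 ± 0.40, with a 95% interval from -0.71 to 0.99. Prdm16, a transcription factor that fixes brown identity, differed by -0.05 ± 0.23 (-0.53 to 0.43). Dio2, the deiodinase that makes active thyroid hormone inside the brown adipocyte, was 8.79, 9.58 and 10.64 at 6°C, against 8.83, 9.59 and 9.40 at 28°C (0.40 ± 0.45), so that array C alone sets the cold mean higher. Among the 11 brown fat lineage genes 0 lay wholly above or below, where 4.73% and 2.8% of all genes did, and their median difference was 0.06. Of the 11, 4 were lower on both arrays C than on each other mWAT array, so they could not separate the temperatures. With so few genes the count of 0 does not show that the list was unchanged.

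**Figure D4:**
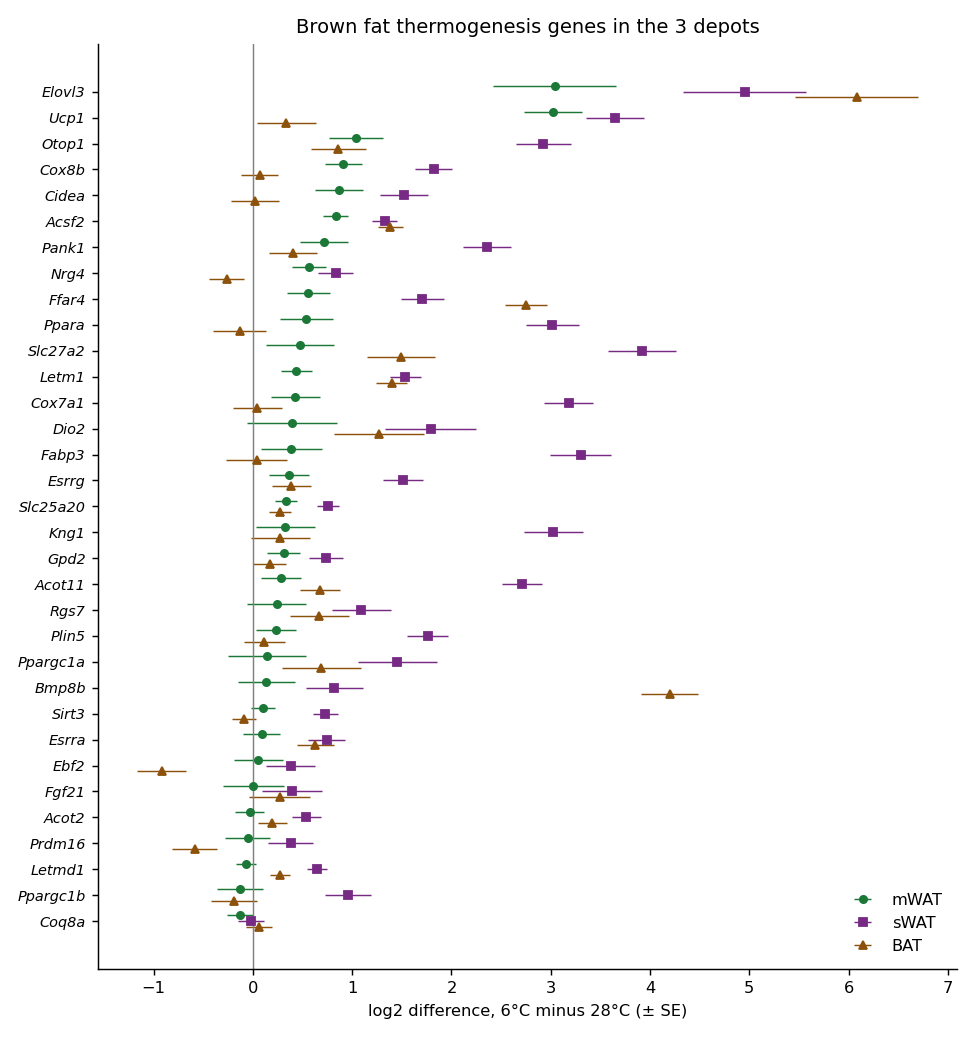
Difference of log2 intensity between 6 and 28°C (x axis, ± SE) for the 33 measured thermogenesis genes (y axis) in mWAT (green circles), sWAT (purple squares) and BAT (brown triangles). In mWAT Elovl3 and Ucp1 stand near 3.0 and most other genes under 0.6, with medians over the list of 0.33 in mWAT, 1.51 in sWAT and 0.27 in BAT.

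The cold response of mWAT minus that of sWAT passed the threshold for 0 probe sets in limma, with 2287 (5.08%) at an unadjusted p under 0.05, 5 (0.0111%) at an adjusted p of 0.05 and 13 (0.0289%) at 0.10, and all 13 had the lower difference in mWAT. The 4 named genes under 0.05, given here after their values were seen, were Acot11, Cox7a1, Acaa2 and Slc27a2. Cox7a1, another tissue-restricted subunit of cytochrome c oxidase, differed by 0.43 ± 0.25 between 6 and 28°C in mWAT and by 3.18 ± 0.25 in sWAT, where it rose, a gap of -2.75 (-3.50 to -2.01, adjusted p = 0.0179). Acot11, a thioesterase that cleaves acyl-CoA, differed by 0.28 ± 0.20 in mWAT and rose by 2.71 ± 0.20 in sWAT (adjusted p of the gap = 0.0179). Slc27a2, which activates very long fatty acids, was near the bottom of the scale in mWAT, at 4.18, 4.01 and 5.33 at 6°C, against 4.07, 4.45 and 3.58 at 28°C, and rose by 3.92 ± 0.34 in sWAT (adjusted p of the gap = 0.0368). For Acaa2, the last thiolase of mitochondrial β-oxidation, the gap on 1 of 3 probe sets was -1.67 ± 0.23. For Ucp1 the gap was -0.63, with an interval from -1.52 to 0.26.

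Against BAT the cold response of mWAT passed the threshold for 262 probe sets (0.582%), 98 above and 164 below. Ucp1 was among those above, since it rose by 3.02 in mWAT and differed by 0.34 in BAT (gap 2.68 ± 0.42, adjusted p = 0.00447). In BAT this probe set lies near the highest log2 intensity of the table, 14.59, and whether it was saturated there was not tested. Coq8a on the dimmer probe set had a gap of 1.42 ± 0.21 and St6galnac5 on the brightest of 3 a gap of 2.64 ± 0.35, with differences of 1.52 in mWAT and -1.12 in BAT. Of the largest gaps, some came with a mean difference near 0 in mWAT and some did not. Bmp8b, a growth factor of brown fat, was at 3.35, 3.42 and 2.91 in mWAT at 6°C, against 3.21, 2.78 and 2.95 at 28°C on the dimmer of its probe sets and rose by 5.10 in BAT. The others with a response below that of BAT were 9030619P08Rik, Ncan, Rims2 and the adipokine gene Serpina12, with gaps from -4.15 to -3.76. Of these 9030619P08Rik differed by 0.96 ± 0.33 in mWAT without overlap, and the other 3 by -0.09 to 0.05. Those above were B3galt2 (4.02), Rab17 (3.97), St6galnac5 on a dimmer probe set (3.34), Snhg11 (3.25) and Pon1 (3.04), with differences in mWAT of 0.33, 0.13, 1.45, -0.50 and 0.85 in that order. The probe sets of Ncan and B3galt2 are each 1 of 3 and not the brightest.

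Enzymes of fat burning had small and mostly positive differences. Of 19 measured genes of mitochondrial fatty acid oxidation, 6 lay wholly above and 0 below at 6°C (31.6% and 0%). A positive difference was held by 18 of the 19, beside 9336 of all 18193 genes. The median was 0.30 in mWAT, beside 0.80 in sWAT and 0.15 in BAT. Cpt2, which completes the entry of fatty acids into the mitochondrion, was 11.89, 11.80 and 12.19 at 6°C, against 11.26, 11.27 and 11.64 at 28°C (0.57 ± 0.14, adjusted p = 0.529). Cpt1a, the regulated entry step, differed by 0.51 ± 0.22 and Etfdh, which hands electrons from β-oxidation to ubiquinone, by 0.44 ± 0.13. Each of the 19 had an upper 95% limit under 1, as did 16049 of all 18193 genes, so this is not particular to the list. The count at an unadjusted p under 0.05 was 10, but 5 without array A at 28°C, 4 without array B at 28°C, 4 without array C at 6°C, where the median was 0.20, and 2 with only the mWAT arrays in the fit. Arrays C were the highest of their temperature in the mean of this list, at 11.98, 12.10 and 12.32 at 6°C, against 11.74, 11.74 and 12.06 at 28°C.

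The peroxisome, which shortens long fatty acids, had 3 of 20 genes wholly above and 0 below (15% and 0%), with a median of 0.18, or 0.070 without array C at 6°C. These were Acaa1b, a peroxisomal thiolase, at 11.82, 12.23 and 12.78 at 6°C, against 11.06, 11.04 and 11.30 at 28°C (1.14 ± 0.25), Ehhadh, the bifunctional enzyme of peroxisomal β-oxidation (0.97 ± 0.31), and Pex3, needed to build the membrane of the organelle (0.56 ± 0.16). The citrate cycle, with 2 of 23 above (8.7%) and a median of 0.09, and the respiratory chain, with 2 of 75 above (2.67%) and a median of 0.02, lay near the background. In sWAT their medians were 0.54 and 0.30.

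Lipolysis releases fatty acids from stored triglyceride. Of 27 measured members 5 lay wholly above and 1 below (18.5% and 3.7%). Lipe, which encodes hormone-sensitive lipase, was 11.80, 12.26 and 12.18 at 6°C, against 11.19, 11.41 and 11.41 at 28°C (0.74 ± 0.16, adjusted p = 0.382), beside 0.77 ± 0.16 in sWAT, with an interval of the gap from -0.52 to 0.45. Pnpla2, which encodes ATGL, the lipase of the first step, differed by 0.40 ± 0.14. G0s2, an inhibitor of ATGL, was 10.86, 10.60 and 12.30 at 6°C, against 12.37, 12.37 and 12.66 at 28°C (-1.21 ± 0.33, adjusted p = 0.699). Array C at 6°C lay next to the warm arrays. With 1 array left out at a time the difference ran from -1.74, without that array, to -0.89. Pck1, the enzyme of glyceroneogenesis that lets fat cells re-esterify fatty acids, was 11.66, 12.93 and 12.69 at 6°C, against 11.09, 11.69 and 10.96 at 28°C (1.18 ± 0.27), with array A at 6°C just under array B at 28°C. Angptl4, an inhibitor of lipoprotein lipase that fasting raises, differed by 0.89 ± 0.31 and overlapped.

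White adipocyte genes were mixed. Adipoq, Fabp4 and Lpl, an adipokine, a fatty acid carrier and the lipase that takes up circulating fat, differed by -0.05 ± 0.09, -0.09 ± 0.10 and -0.05 ± 0.09. These probe sets lie near the highest log2 intensity of the table, 14.59, and whether they were saturated was not tested. Over all its probe sets Fabp4 differed by 0.58. Of the 15 measured, 5 lay wholly above and 1 below (33.3% and 6.67%), and the median was 0.01, or 0.24 with all probe sets of each gene. Those above were Lipe and Acvr1c, an activin receptor (0.58 ± 0.17), with Cebpa, a master regulator of the adipocyte (0.24 ± 0.10), Cidec, a lipid droplet protein (0.24 ± 0.11), and Pnpla2. The 1 below was Lep, which encodes leptin, the hormone that signals fat stores, at 10.47, 8.93 and 11.19 at 6°C, against 11.95, 12.72 and 11.39 at 28°C (-1.82 ± 0.58, adjusted p = 0.908). The highest cold array and the lowest warm array of Lep are both arrays C, and in BAT leptin fell by 2.76 ± 0.58.

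Of 20 measured glycolysis genes 1 lay wholly above and 2 below (5% and 10%). Of 21 measured fatty acid synthesis genes 2 lay above and 1 below (9.52% and 4.76%). These counts are small and near the shares over all genes, 4.73% and 2.8%, and 0 genes of either list passed the threshold. Hk2, the insulin-responsive hexokinase, was 12.30, 11.76 and 12.38 at 6°C, against 12.77, 12.83 and 12.78 at 28°C (-0.64 ± 0.21). Pfkfb3, which sets the level of a glycolytic activator, differed by 0.70 ± 0.22, and Elovl7, a fatty acid elongase, by 0.75 ± 0.16. Scd2, a desaturase, differed by -0.45 ± 0.16. The medians of the glycolysis and fatty acid synthesis lists were 0.02 and 0.03.

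**Figure D5:**
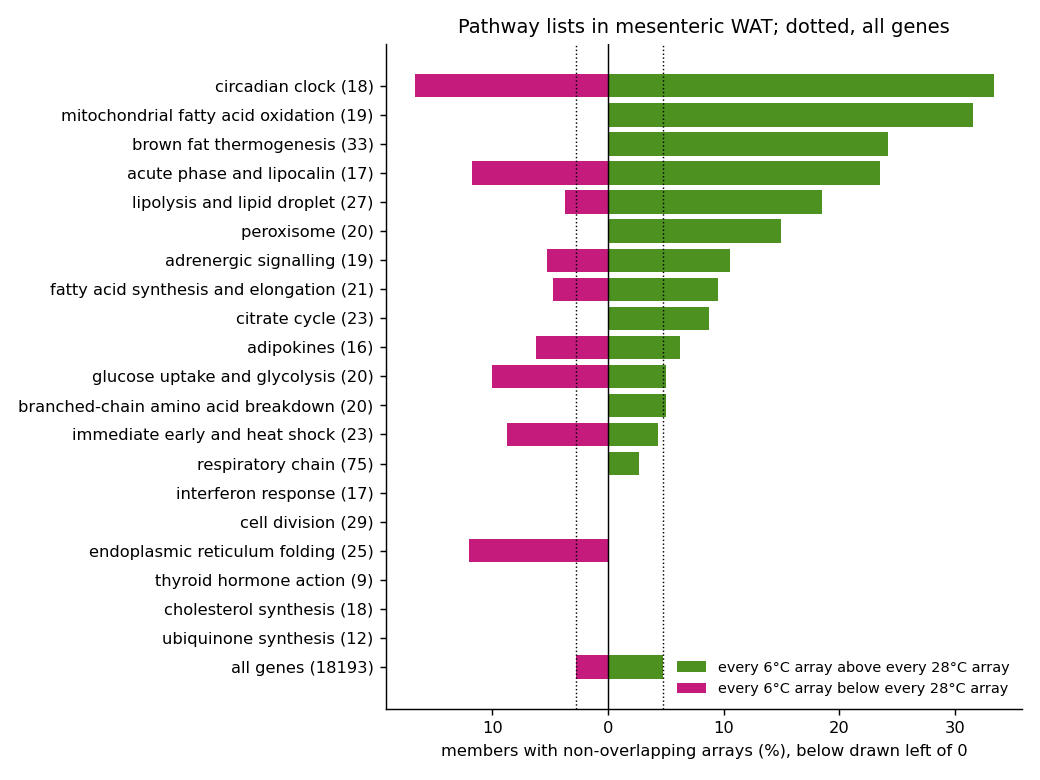
Share of measured members (x axis, %) of each pathway list (y axis, number measured in brackets) with every 6°C array above every 28°C array (green, right of 0) or below (pink, left of 0) in mWAT, with dotted lines at the shares over all genes, 4.73% above and 2.8% below. The circadian clock list has 33.3% above and 16.7% below, and fatty acid oxidation has 31.6% above and 0% below.

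Acute phase genes had 4 of 17 wholly above and 2 below (23.5% and 11.8%). A positive difference was held by 10 of the 17, beside 9336 of all 18193 genes, and the lowest difference was -1.32. The members named here are all among those higher in the mean at 6°C, so they do not stand for the list. Beside Orm2 and Orm3, Lcn2, which encodes lipocalin 2, an iron-binding protein of inflammation and fat, was 10.26, 10.60 and 10.31 at 6°C, against 8.63, 8.71 and 9.37 at 28°C (1.49 ± 0.38, adjusted p = 0.611). In sWAT and BAT Lcn2 differed by -0.54 ± 0.38 and -0.59 ± 0.38, and the gap to BAT was 2.08 with an adjusted p of 0.0567. Saa1, which encodes serum amyloid A, was scattered, at 7.55, 5.27 and 7.73 at 6°C, against 3.62, 4.69 and 5.82 at 28°C (2.14 ± 0.91). Itih4 reached 11.17 on array B at 6°C alone, the array high in pancreas genes, and was between 6.62 and 7.16 on the other 5.

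Marker lists of other cell types differed in how far they separated the temperatures. The B cell, T cell, lymph node stroma, exocrine pancreas, mesothelium, smooth muscle and fibroblast lists each had 0 members wholly above or below. All 20 B cell, all 20 T cell and 9 of 15 lymph node stroma genes were lowest on both arrays C, which differ in temperature. For 25 of 28 exocrine pancreas genes, array A at 28°C came second to array B at 6°C. None of these genes could separate the temperatures, so their 0 counts do not measure an effect of cold. Endothelial genes had 5 of 18 wholly above and 0 below (27.8% and 0%) with a median of 0.23, among them Egfl7 (0.37 ± 0.17) and Plvap (0.30 ± 0.13), both made by vessel cells. At an unadjusted p under 0.05 in limma 2 were higher (11.1%), and 0 passed the threshold. A positive difference was held by 15 of the 18, beside 9336 of all 18193 genes, and the lowest was that of Sox17, -0.37. The mean of the endothelial list was 9.82, 9.79 and 9.89 at 6°C, against 9.55, 9.67 and 9.76 at 28°C, without overlap. The 8 measured lymphatic endothelial genes had a list mean of 10.12, 9.87 and 10.21 at 6°C, against 9.71, 9.67 and 9.74 at 28°C, also without overlap, and a median difference of 0.43, with 1 gene wholly above (12.5%). Of 5 measured erythrocyte genes (10 listed) 2 lay wholly above (40%), Epb42, a red cell membrane protein (1.0 ± 0.39, under the array medians), and Alas2, the heme synthesis enzyme of red cells, at 9.32, 10.94 and 10.30 at 6°C, against 8.70, 9.18 and 9.24 at 28°C (1.14 ± 0.38). The other 3 overlapped. Of these the globin gene Hba-a1 was lower in the mean, at 4.13, 3.38 and 3.25 at 6°C, against 4.42, 3.85 and 3.79 at 28°C, all under the array medians. Chil3, a chitinase-like protein of macrophages, was 6.50, 9.75 and 6.19 at 6°C, against 4.18, 3.85 and 5.31 at 28°C (3.03 ± 0.75, adjusted p = 0.543). It was highest on the array high in pancreas genes and in neutrophil genes such as S100a8. The part of these cell types in the other differences was not tested beyond fits with lymphoid and pancreas levels as covariates, in which Ucp1 differed by 2.92 with an adjusted p of 0.00387.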

How the data were processed

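The deposited values were linear intensities per probe set, made by the authors with Bioconductor packages that correct the background, combine the probes of a set and normalize between arrays. The algorithm is not given in the sources used here, and the study names different array types in different places. Intensities were taken as log2, 64 control probe sets were left out and 45037 were tested. Arrays were grouped by title, since other label fields conflict with the titles.

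A mean for each of the 6 groups of 3 arrays was fitted over all 18 arrays with limma 3.58.1 in R 4.3.3 (12 residual degrees of freedom), with Benjamini-Hochberg adjustment over all probe sets and a threshold of 0.01. Differences are 6°C minus 28°C, and gaps are the mWAT difference minus that of another depot. GEO's platform annotation named 1 gene for 34945 probe sets, several for 932 and none for 9160, and the brightest probe set stood for each of 18193 genes. The lists held 883 genes, of which 801 were measured. Genes were named where the adjusted p was under 0.10, where they were among the 10 smallest p-values in each direction without overlap, as paralogs, as up to 6 members of a list, as the most variable markers, or as the 5 largest gaps in each direction. A gene that this rule names is not reported here. Members and lists were chosen with earlier results of these data known. The number of arrays limits the precision. SEs, intervals and p-values rest on a spread pooled over all 18 arrays, sWAT and BAT included, and not on the mWAT arrays alone. Promoter windows are RefSeq's. Alternatives were other normalizations, filters, variance estimates, array weights, a pseudocount of 50, lymphoid and pancreas covariates, all probe sets of a gene, other thresholds and leaving out arrays.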

Additional observations from a re-analysis of the deposited data

Results flagged for a closer look

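Groups of 3 arrays were too small for a test of outlying samples. The difference between 6 and 28°C in mWAT was itself tested against that in BAT, and 13 probe sets named in the text passed an adjusted p of 0.01 in limma. The gap, mWAT minus BAT, was positive for Ucp1 (2.68, with the BAT arrays near the highest log2 intensity of the table, 14.59, and saturation not tested), Coq8a on the dimmer probe set (1.42), St6galnac5 on the brightest probe set (2.64) and on a dimmer one (3.34), B3galt2 (4.02), Rab17 (3.97), Snhg11 (3.25) and Pon1 (3.04). It was negative for Bmp8b (-4.86), 9030619P08Rik (-4.15), Ncan (-3.82), Rims2 (-3.81) and Serpina12 (-3.76).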

How the results depend on the processing

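No paired analysis was possible because the labels give no replicate number that groups share. The cause of each change was not tested. For mWAT at 6 against 28°C, where 1 probe set passed, 4 passed at an adjusted p of 0.05, 6 at 0.10, 0 with only the mWAT arrays, 4 with a variance trend and robust estimates, 56 with array weights, 0 with a pseudocount of 50 and 0 to 4 when 1 array was left out (0 without 28°C array A or C or 6°C array A, 4 without 6°C array C, 2 without sWAT 28°C array B or C). Ucp1 differed by 3.02 (adjusted p = 1) with only the mWAT arrays, by 2.48 (0.0117) with the pseudocount, and by 2.69 to 3.39 with 1 array left out. Over its 32 alternatives the adjusted p ran from 5.44e-06 to 1 and was under 0.01 in 27. These alternatives include the main fit at other thresholds and fits that left out only an sWAT or BAT array. They also include a mean over probe sets, of which Ucp1 has 1. The count of 27 is therefore no measure of how firm the call is within mWAT.

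For mWAT minus sWAT, with 0 in limma, 5 passed at 0.05, 13 at 0.10, 1 without dim probe sets, 5 with the variance trend, 11 with array weights, 4 with the pseudocount, 16 with the lymphoid covariate, 11 with both covariates, 4 without both arrays C and 0 to 10 with 1 array left out (10 without sWAT 6°C array B, 4 without mWAT 6°C array C). For mWAT minus BAT, with 262, the counts were 1063 at 0.05, 1980 at 0.10, 40 with only these depots, 460 without dim probe sets, 405 with the variance trend, 1355 with array weights, 627 with the pseudocount, 825 with the lymphoid covariate, 721 with both covariates and 95 to 369 with 1 array left out. Each BAT array, each mWAT array at 28°C and arrays A and B at 6°C gave 95 to 163.

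List medians moved to 0.24 for white adipocyte genes with all probe sets of a gene, to 0.47 (array weights) and 0.41 (without both arrays C) for the clock, to 0.34 (array weights), 0.29 (pseudocount), 0.67 (without both arrays C) and 0.42 (all probe sets) for erythrocyte genes, to 0.27 (array weights) for the brown fat lineage and to -0.066 (without both arrays C) for type 2 immunity, whose range with 1 array left out was -0.082 to 0.096 (lowest without 28°C array C). The sign turned for Dio2 without both arrays C (-0.029) and over -0.091 to 0.84 with 1 array left out (lowest without 6°C array C), for Fabp4 with all probe sets (0.58), for Orm1 without 28°C array A (-0.11) or 6°C array C (-0.05), for Ppargc1a without 28°C array B (-0.18) or 6°C array C (-0.23; highest 0.60 without 28°C array C), for Prdm16 with array weights (0.24), the pancreas covariate (0.0020), without both arrays C (0.15) and without 28°C array C (0.17; lowest -0.26 without 28°C array A), and for Slc27a2 without both arrays C (-0.16). Of the other values of single genes under alternatives, 2879 kept their direction and side of the threshold, 27 passed it and 69 no longer did. The counts of clock, thermogenesis and fatty acid oxidation genes under each alternative were added after seeing the data.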
